A study of Homo sapiens with 3 samples.

Results

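The genes of homologous recombination and of the Fanconi anaemia pathway were examined as a named group of 40 genes in the A549 line, which comes from a human lung adenocarcinoma. A gene was found through its probes: the RefSeq accession that the array files give for a probe was matched to the current or an older symbol of a listed gene, with no use of signals. All 40 genes were found, with 57 probes, among 18216 protein-coding genes with a probe. RNA was measured on 3 Agilent arrays of 1 colour, labelled with Cy3. The mock array held RNA of cells given the Lipofectamine RNAiMAX reagent with no precursor, and the other arrays held RNA of cells given the *miR-139-5p* or the *miR-139-3p* precursor at 10 nM, all in RPMI medium. The time of harvest is not given in the sources used here. No array of a control precursor was analysed, so that the presence of a small RNA and its sequence cannot be told apart in a comparison with mock. Each condition had 1 array of 1 line, so no test was made, no p-value is given, and the spread between cultures is unknown.

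Homologous recombination repairs a broken chromosome, or restarts a stalled replication fork, by copying the intact sister chromatid. The ends are cut back to single strands, BRCA1, BRCA2 and their partners load the recombinase on them, and nucleases separate the joined molecules after strand exchange. The Fanconi anaemia pathway handles cross-links between the strands of DNA: a core complex attaches ubiquitin to the FANCD2-FANCI pair at a blocked fork, and repair then runs through the recombination proteins. Cisplatin and carboplatin, used against lung cancer, make such cross-links, and many of these genes are transcribed mostly in S and G2 phase.

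The transfected miRNAs are the opposite arms of 1 hairpin on chromosome 11, minus strand, and are shown because every comparison below turns on which arm was added. The mature sequences, from RefSeq on assembly GRCh38.p14, lie at chr11:72615066-72615088 (*miR-139-3p*) and chr11:72615102-72615124 (*miR-139-5p*), and each has 23 bases. Capitals mark the seed, bases 2 to 8 from the 5′ end, which pairs with target mRNAs.

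hsa-miR-139-3p: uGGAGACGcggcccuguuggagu

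hsa-miR-139-5p: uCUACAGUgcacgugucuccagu

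The seeds GGAGACG and CUACAGU are different, and target sites in the member transcripts were not analysed here.

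Signals are given as a relative signal, the percent of the 75th percentile of the signals on the same array, and differences between arrays as log2 differences of that quantity. A gene with several probes has the geometric mean of its probes, and the signal of one probe cannot be set against that of another, so levels are compared only between arrays. A log2 difference past 0.5 in size is called lower or higher, and a value short of it is called between. This is a size and not a test. The signal was well above background in 48.1% to 53.1% of spots, 0 spots were saturated, and 614 to 1526 spots per array were marked as outliers by the scanner software and left out. The mock and *miR-139-5p* arrays were read in the same scan and the *miR-139-3p* array in another, so scan and transfection cannot be told apart for *miR-139-3p*. Of 7 markers of A549 as an epithelial line with active NRF2, 6 were well above background on all 3 arrays, and of 8 markers of leukocytes, endothelium and fibroblasts, 2 were. *CDKN2A*, which is deleted in A549, has 2 probes, of which 1 read 328% of the 75th percentile in mock cells and 381% after *miR-139-5p*, and was an outlier spot after *miR-139-3p*; the cause was not tested.

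The technical error was read from the arrays themselves. Spots of the same probe had a median SD of 0.05 to 0.06 on the log2 scale within an array. Different probes of 1 gene had a median SD of their log2 differences of 0.28 for *miR-139-3p* against mock over 3684 genes, and of 0.15 for *miR-139-5p* against mock over 3743 genes. The threshold of 0.5 lies above both, and neither value holds any spread between cultures. Of the members, 28 have 1 probe and 12 have more.

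With *miR-139-3p*, most genes of recombination and of the Fanconi anaemia pathway had lower signals than in mock cells. Of 39 members with a value, 28 were lower past the threshold, 1 was higher and 10 were between, where 30.5% of 13551 protein-coding genes were lower and 23% were higher. The median log2 difference was -0.89 over the members and -0.13 over the protein-coding genes, and 35 members were below 0. *BARD1*, *BLM*, *EXO1* and *RAD51AP1* were the lowest, 4.33-fold to 5.07-fold lower than mock, and *RAD52* was the only member above the threshold. With normexp, another background correction, the order was different: *BLM* was the lowest at -1.85, followed by *XRCC3* (-1.61), *EXO1* (-1.59), *BRCA1* (-1.49) and *RAD54L* (-1.48), while *BARD1* was at -1.48 and *RAD51AP1* at -0.71. In RNA from whole cultures, fewer cells of a cycle phase and less RNA per cell cannot be told apart.

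The same cells also had lower signals for genes that mark dividing cells. Of 15 S phase genes 14 were lower, with a median of -1.51, and of 13 measured G2/M genes 13 were lower, with a median of -1.50. The part of this in the lower signals of the recombination genes was not tested.

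**Figure D1:**
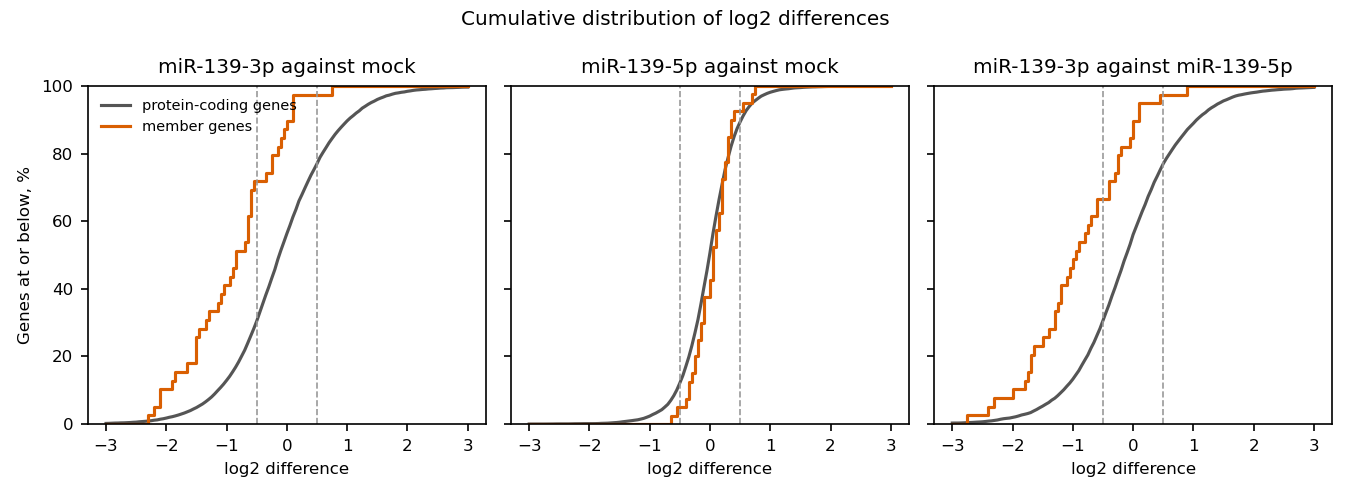
Cumulative distribution of log2 differences in 3 comparisons, with the log2 difference on the horizontal axis and the percent of genes at or below it on the vertical axis. The grey line holds the protein-coding genes, the orange line the member genes and the dashed lines the threshold of 0.5. With *miR-139-3p* the member line lies to the left of the grey line, with a median of -0.89 against -0.13, and with *miR-139-5p* the lines lie close together, with medians of 0.04 and -0.01.

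Promoter sequence was read for 37 members with 50 windows, each from 250 bases before to 50 bases after a RefSeq start on GRCh38.p14. *FANCI*, *NBN* and *RAD54B* are not among them. Windows were searched on both strands for E2F-like letters (TTTCGCGC, TTTGGCGC, TTTCCCGC or TTTGCCGC), for the cell cycle homology region (TTTGAA or TTTAAA) and for the CCAAT box (CCAAT), each place counted once per motif and overlaps between motifs allowed. E2F proteins and the complexes that read the other motifs are known for driving genes of S and G2 phase. An E2F-like match lay in 14% of the member windows and in 3.31% of all 35116 windows (4.1% of those of protein-coding genes). The cell cycle homology region lay in 16% of member windows and 24% of all windows, and a CCAAT box in 42% and 34.6%. Windows with 3 or more CCAAT boxes were 10% of the member windows and 3.26% of all. Several members have overlapping windows, so windows are not independent.

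Members with a match did not all have low signals with *miR-139-3p*. Of 7 members with an E2F-like match, 5 were lower (*EXO1*, *FANCA*, *FANCC*, *FANCD2* and *TOPBP1*), while *GEN1* and *XRCC2* were between, and of 29 members with a value and no match, 20 were lower. Of 16 members with a value and at least 1 CCAAT box, 11 were lower, and of 20 without one, 14 were. Of the 5 members with 3 or more CCAAT boxes in a window, *BLM*, *BRIP1*, *CHEK1* and *XRCC3* were lower and *CHEK2* was between, and of 31 other members with a window and a value, 21 were lower. Of 7 members with the cell cycle homology region, 6 were lower, and of 29 without it, 19 were. *BARD1*, the lowest member, had none of these letters in its window, which says only that they are not there. Stretches of 3 promoters are shown because they hold the clustered or single matches of members that were lower, with the matched letters in capitals. They run 5′ to 3′ on the strand of the gene and end before the start: *FANCA* at chr16:89816782-89816849, minus strand, *BLM* at chr15:90717195-90717339, plus strand, and *XRCC3* at chr14:103715470-103715677, minus strand. The match in *FANCA* is E2F-like, and those in *BLM* and *XRCC3* are CCAAT boxes on either strand. The stretches were picked among lower members, so they show no link between letters and signal. *CHEK2*, with 3 CCAAT boxes and a difference of -0.38, is among those not shown.

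FANCA: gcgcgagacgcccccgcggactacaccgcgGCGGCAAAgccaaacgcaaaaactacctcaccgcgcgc

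BLM: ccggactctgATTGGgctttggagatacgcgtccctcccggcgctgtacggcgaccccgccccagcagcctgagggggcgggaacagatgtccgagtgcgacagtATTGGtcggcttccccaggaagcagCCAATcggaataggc

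XRCC3: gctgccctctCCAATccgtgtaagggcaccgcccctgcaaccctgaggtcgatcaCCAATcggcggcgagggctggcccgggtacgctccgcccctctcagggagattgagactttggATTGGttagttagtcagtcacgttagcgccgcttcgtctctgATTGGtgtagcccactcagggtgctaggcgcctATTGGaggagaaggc

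The *BLM* stretch holds 3 CCAAT boxes and the *XRCC3* stretch 5. A match in letters is a description, and binding was not measured.

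**Figure D2:**
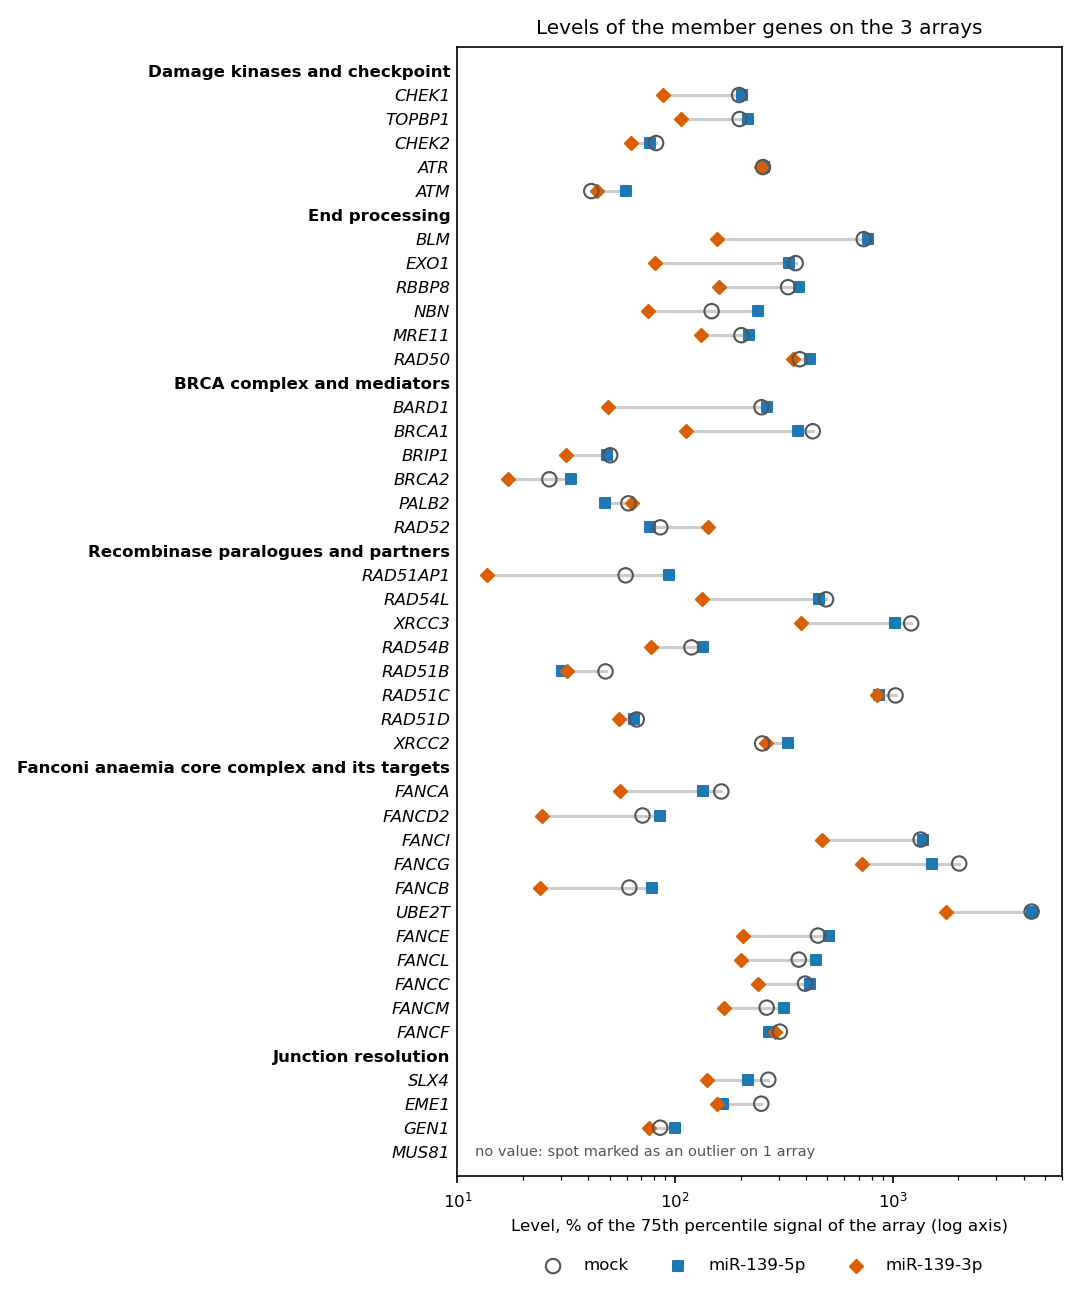
Relative signal of each member on the mock (open circle), *miR-139-5p* (blue square) and *miR-139-3p* (orange diamond) array, in percent of the 75th percentile of the array on a log axis, grouped by role. Each row is read across its 3 points and not against other rows. The orange diamond lies apart to the left for *BARD1*, *BLM*, *EXO1* and *RAD51AP1*, and to the right for *RAD52*.

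The damage kinases and checkpoint genes held the members that sense breaks and stalled forks, and 2 of 5 were lower with *miR-139-3p*, with a median of -0.38. That share, 40%, is near the 30.5% of protein-coding genes that were lower, and the roles hold 3 to 11 genes with a value each. The counts of the other roles below are to be read beside the same 30.5%. *CHEK1*, the checkpoint kinase that holds cells back when forks stall, had a relative signal of 197% in mock cells, 204% after *miR-139-5p* and 87.7% after *miR-139-3p*. It was 2.24-fold lower with *miR-139-3p*, a log2 difference of -1.17, where *miR-139-5p* differed from mock by 0.05. *CHEK1* was among the candidate genes that the study selected on these same arrays, so its direction is not independent evidence. *TOPBP1*, the scaffold that switches on ATR, read 198%, 216% and 106% (mock, then *miR-139-5p*, then *miR-139-3p*), a difference of -0.89 with *miR-139-3p*.

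The kinases at the head of the response stayed within the threshold with *miR-139-3p*. *ATR*, the kinase of stalled forks, read 253% in mock cells, 257% after *miR-139-5p* and 249% after *miR-139-3p*, differences of 0.02 and -0.03 from mock. *ATM*, the kinase of double-strand breaks, read 41.2%, 59.3% and 43.9% in the same order. Its difference was 0.53 with *miR-139-5p*, just past the threshold, and 0.09 with *miR-139-3p*, where its 2 probes gave -0.27 and 0.45. *CHEK2*, the kinase that ATM activates, read 81.8%, 76.6% and 62.9%, a difference of -0.38 with *miR-139-3p* and an SD between 3 probes of 0.31. Another *CHEK2* probe was an outlier spot on the *miR-139-3p* array. *CHEK2* and *BRCA1* have related pseudogene copies in the genome, and binding of such transcripts to the probes was not tested.

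Of the end processing genes, whose products cut the broken ends back to single strands, 5 of 6 were lower with *miR-139-3p*, with a median of -1.01. *BLM*, the helicase that opens DNA for long-range cutting and dissolves joined molecules, had the lowest value of the group. It read 736% in mock cells, 767% after *miR-139-5p* and 155% after *miR-139-3p*. That is 4.75-fold lower with *miR-139-3p*, a log2 difference of -2.25, where *miR-139-5p* differed from mock by 0.06. *EXO1*, the exonuclease of long-range cutting, read 358%, 333% and 80.8% in the same order, 4.43-fold lower with *miR-139-3p*. Both genes of long-range cutting were past the threshold with *miR-139-3p* and within it with *miR-139-5p*, where *EXO1* was at -0.11.

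The genes that start the cutting lay closer to mock. *RBBP8*, which encodes CtIP, the cofactor of MRE11, read 331%, 373% and 158% (mock, then *miR-139-5p*, then *miR-139-3p*), a difference of -1.06 with *miR-139-3p*. MRE11, RAD50 and NBN form the complex that binds the ends. *MRE11*, its nuclease, read 202%, 218% and 131%, a difference of -0.62 with *miR-139-3p*, or -0.46 and short of the threshold with normexp. *NBN*, the subunit that recruits ATM, read 147%, 240.0% and 75.4%, so that it was lowest with *miR-139-3p* (-0.96) and highest with *miR-139-5p* (0.71). *RAD50*, the ATPase that bridges the ends, read 374%, 417% and 347%, and its difference of -0.11 with *miR-139-3p* was within the threshold. The subunits of the complex thus ranged from -0.96 to -0.11.

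The BRCA complex and the mediators, which bring the recombinase to the ends, held both extremes of the members with *miR-139-3p*: 4 of 6 were lower, *RAD52* was higher, and the median was -0.65. *BARD1*, the obligate partner of BRCA1 in its ubiquitin ligase, read 249.5% in mock cells, 264% after *miR-139-5p* and 49.2% after *miR-139-3p*. It was 5.07-fold lower with *miR-139-3p*, the lowest of all members, with a log2 difference of -2.34. *BRCA1*, which promotes cutting of the ends and recruits PALB2, read 429%, 366% and 113%, 3.81-fold lower with *miR-139-3p* and -0.23 on the log2 scale with *miR-139-5p*. The BRCA1-BARD1 pair thus had low signals on the *miR-139-3p* array for both partners.

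The downstream mediators differed less. *BRCA2*, which loads the recombinase, read 26.4%, 33.3% and 17.1% (mock, then *miR-139-5p*, then *miR-139-3p*), a difference of -0.63 with *miR-139-3p*. *BRIP1*, the BRCA1-bound helicase also called FANCJ, read 50.3%, 48.9% and 31.7%, a difference of -0.67. With normexp *BRCA2* was at -0.14 and *BRIP1* at -0.20, short of the threshold, which left 2 of the 6 genes lower. *PALB2*, the bridge between BRCA1 and BRCA2, read 61.0%, 47.8% and 63.7%, at 0.06 after *miR-139-3p* and -0.35 after *miR-139-5p*, both within the threshold. *RAD52*, which anneals single strands and backs up BRCA2, went the other way. It read 85.6%, 77.1% and 142%, 1.66-fold higher with *miR-139-3p* (0.73), and its 2 probes gave 0.47 and 1.00. Since 1 of these probes was short of the threshold, the call rests on the other: with the brightest or the lowest probe of each gene alone, and with normexp background correction, 0 members were higher.

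Among the paralogues and partners of the recombinase, 5 of 8 were lower with *miR-139-3p*, with a median of -0.61. *RAD51AP1*, which stimulates strand pairing by the recombinase, read 59.3% in mock cells, 93.7% after *miR-139-5p* and 13.7% after *miR-139-3p*. The difference was -2.11 after *miR-139-3p* and 0.66 after *miR-139-5p*, so that the arrays lay on opposite sides of mock. With normexp these were -0.71 and 0.35, the second short of the threshold. *RAD54L*, the motor protein of strand invasion, read 494%, 457% and 133%, 3.71-fold lower with *miR-139-3p*. *RAD54B*, its relative, read 119%, 135% and 77.1%, with a difference of -0.62, and its 2 probes gave -0.99 and -0.25. With normexp *RAD54B* was at -0.43, short of the threshold.

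The paralogues form 2 complexes, with RAD51C in both. *XRCC3*, the partner of RAD51C in the smaller complex, read 1216%, 1024% and 377% (mock, then *miR-139-5p*, then *miR-139-3p*), 3.22-fold lower with *miR-139-3p*. *RAD51C* itself read 1031%, 865% and 847%, at -0.28 after *miR-139-3p* and -0.25 after *miR-139-5p*. *RAD51B*, of the larger complex, was measured with 1 of its 2 probes and read 47.9%, 30.3% and 31.9%, lower past the threshold with both miRNAs (-0.59 after *miR-139-3p* and -0.66 after *miR-139-5p*). With normexp these were -0.13 and -0.15, and both calls were lost. The other subunits of the larger complex stayed within the threshold with both miRNAs. *RAD51D* read 66.7%, 65.1% and 55.1%, and its 3 probes ran from -0.86 to 0.36 with *miR-139-3p*, around a mean of -0.27. *XRCC2* read 251%, 329% and 263%, at 0.06 after *miR-139-3p* and 0.39 after *miR-139-5p*. Within the paralogue complexes, *XRCC3* therefore stood apart, the other 4 lying between -0.59 and 0.06.

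The Fanconi anaemia core complex and its targets had the most members lower with *miR-139-3p*: 10 of 11, with a median of -1.31, and *FANCF* was the exception. *FANCD2* and *FANCI* encode the pair that receives the ubiquitin. *FANCD2* read 70.9% in mock cells, 85.6% after *miR-139-5p* and 24.4% after *miR-139-3p*, 2.90-fold lower with *miR-139-3p*, and its 3 probes ran from -1.82 to -0.99, the probe at -0.99 being dim, at 7.06% on the *miR-139-3p* array. *FANCI* read 1345%, 1379% and 472%, 2.85-fold lower. The differences of the partners were -1.54 and -1.51, and with normexp -0.67 and -1.47. *UBE2T*, the conjugating enzyme that hands over the ubiquitin, read 4349%, 4363% and 1759%, 2.47-fold lower with *miR-139-3p* and level with mock with *miR-139-5p* (0.00). *FANCL*, the ligase of the core complex, read 370.1%, 443% and 200.1%, with a difference of -0.89 and probes at -0.997 and -0.777.

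The remaining core subunits assemble around FANCL. *FANCA* read 163%, 135% and 55.8% (mock, then *miR-139-5p*, then *miR-139-3p*), 2.93-fold lower with *miR-139-3p*, and its 3 probes ran from -2.33 to -0.91. *FANCG*, its binding partner, read 2022%, 1523% and 723%, 2.80-fold lower, and had the largest difference of the group with *miR-139-5p*, at -0.41. *FANCB*, of the catalytic module with FANCL, read 61.6%, 78.3% and 24.0%, 2.57-fold lower. These 3 subunits thus ran from -1.55 to -1.36 on the log2 scale with *miR-139-3p*. With normexp *FANCA* was at -0.86 and *FANCB* at -0.497, just short of the threshold. *FANCE*, which links the core to FANCD2, read 454%, 512% and 206%, a difference of -1.14. *FANCC*, which joins FANCE and FANCF, read 396%, 415% and 241% with 1 probe, a difference of -0.72, its other probe being an outlier spot on the *miR-139-3p* array, and with outlier spots kept the difference was -1.34. *FANCM*, the translocase that anchors the core on DNA, read 264%, 318% and 168%, a difference of -0.65, or -0.48 and short of the threshold with normexp. *FANCF*, the adaptor between FANCM and the core, read 303%, 270.5% and 289%, and its 2 probes, at -0.43 and 0.29, lay on either side of 0 with *miR-139-3p*. The core subunits therefore spanned from -1.55 to -0.07.

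The junction resolution genes encode nucleases that separate joined chromosomes and their scaffold, and 2 of 3 with a value were lower with *miR-139-3p*, with a median of -0.67. *SLX4*, the scaffold, read 268% in mock cells, 216% after *miR-139-5p* and 141% after *miR-139-3p*, a difference of -0.93. *EME1*, the partner of MUS81, read 249%, 165% and 156%, lower with both miRNAs (-0.67 after *miR-139-3p* and -0.59 after *miR-139-5p*). *GEN1*, a resolvase that acts late in the cycle, read 85.4%, 100.4% and 76.0%, within the threshold on both. *MUS81*, the catalytic partner of EME1, has 1 probe, which was an outlier spot on the *miR-139-3p* array and gave no value there. It read 627% in mock cells and 487% after *miR-139-5p*, a difference of -0.37, and with outlier spots kept its difference with *miR-139-3p* was 0.11.

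**Figure D3:**
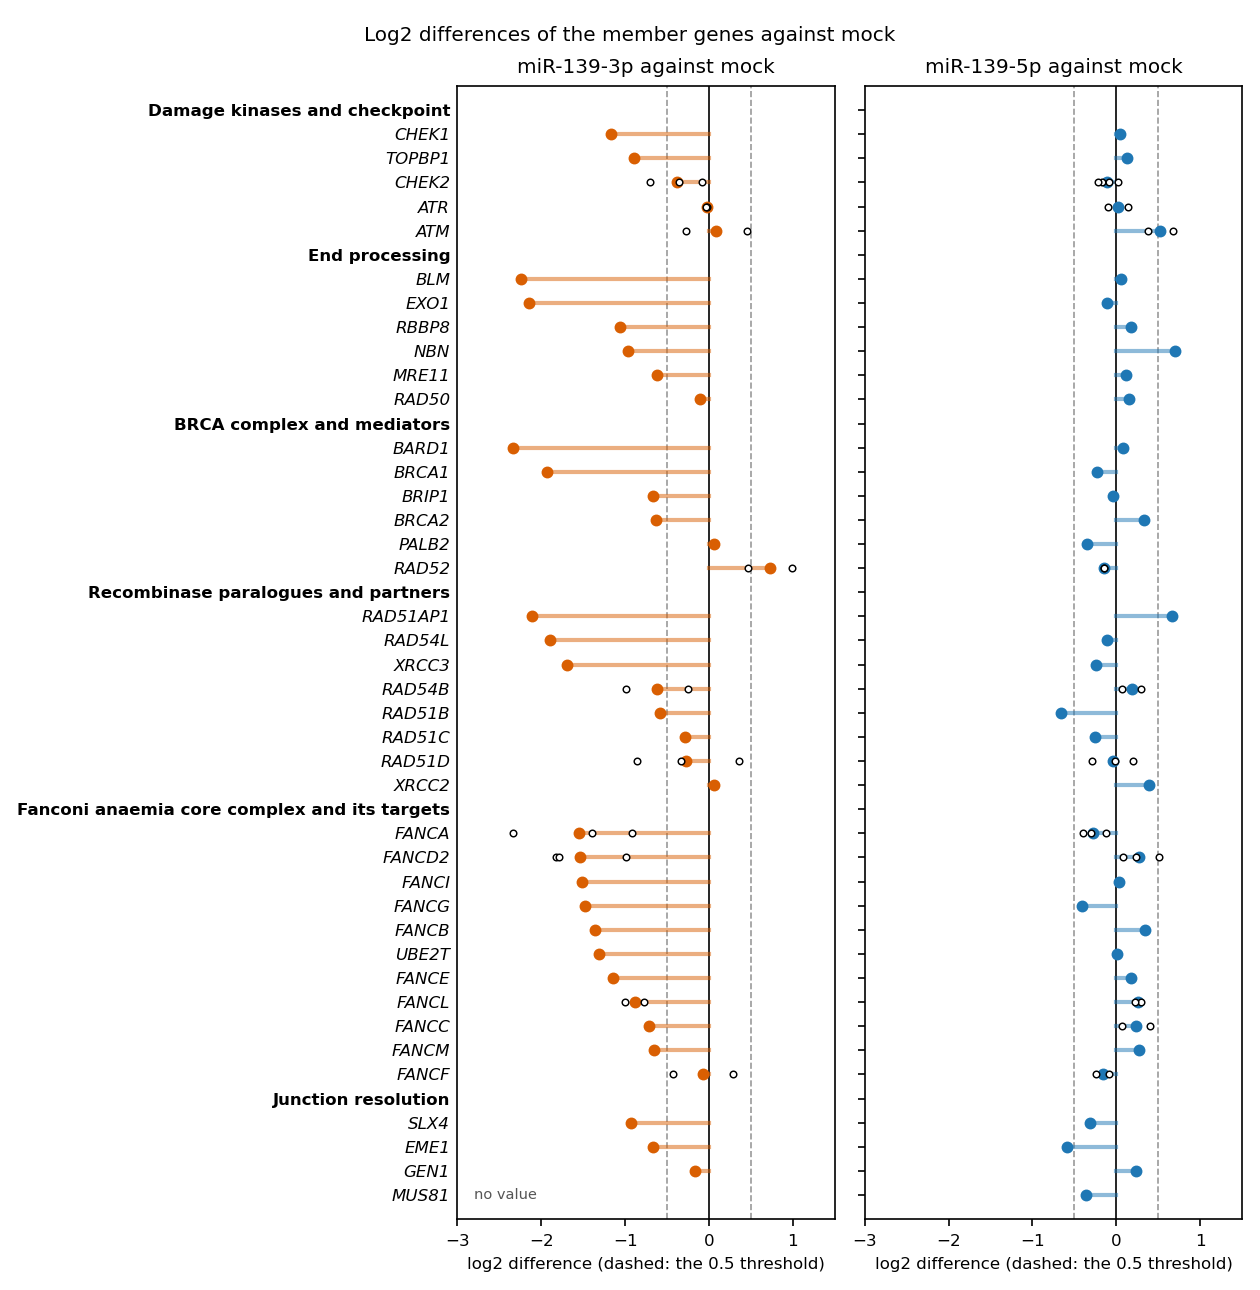
Log2 difference of each member against mock, for *miR-139-3p* (left) and *miR-139-5p* (right), with 1 array per condition. Filled points are the gene values, open points the probes of genes with several, and dashed lines the threshold of 0.5. On the left, 28 members lie below the lower line and *RAD52* above the upper line, and on the right 35 of 40 lie between the lines.

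Members printed in many copies on the array gave the closest look at the measurement. *BRCA1*, *EXO1*, *RAD50* and 1 probe of *FANCA* have 10 spots on each array. The *BRCA1* spots ran from 404% to 458% in mock cells, from 297% to 408% after *miR-139-5p* and from 103% to 129% after *miR-139-3p*. The *EXO1* spots ran from 341% to 371%, from 319% to 353% and from 73.9% to 85.3% in the same order, over 9, 8 and 10 spots that were no outliers. The *FANCA* spots ran from 203% to 229.6%, from 188% to 201% and from 74.2% to 86.2%. For these 3 genes the *miR-139-3p* spots did not overlap those of mock, a statement on 1 array each and not on cultures. How many other probes with many spots also did not overlap was not counted, so this cannot be called particular to the members. The *RAD50* spots ran from 348% to 398%, from 396% to 454% and from 316% to 368%, and those of the *miR-139-3p* and mock arrays overlapped. The SD over spots was between 0.03 and 0.13 on the log2 scale for these probes.

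**Figure D4:**
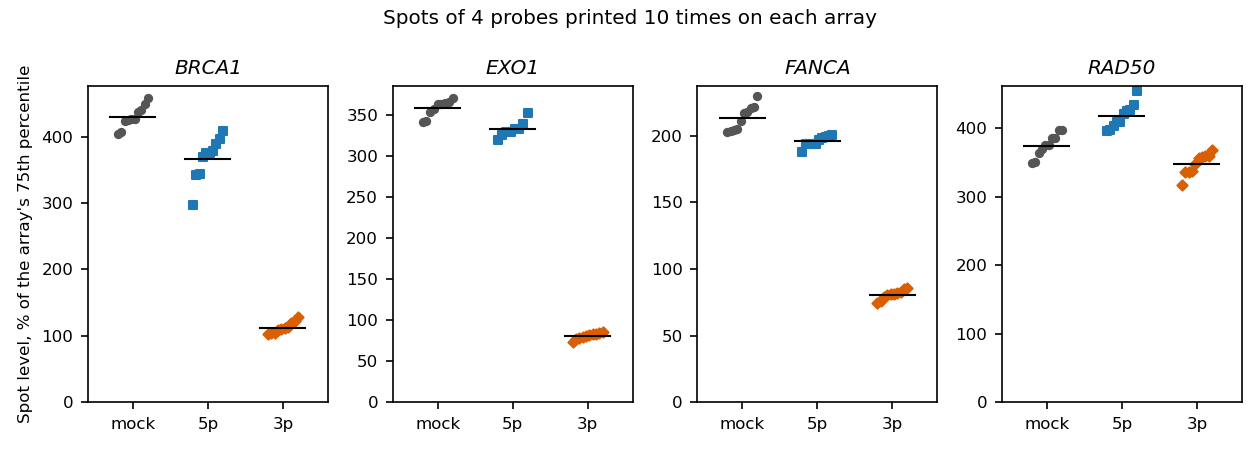
Relative signal of each spot, in percent of the 75th percentile of the array, for 4 probes printed 10 times, on the mock, *miR-139-5p* (5p) and *miR-139-3p* (3p) arrays, with the geometric mean as a black line and the vertical axis from 0. The *miR-139-3p* spots of *BRCA1* (103% to 129%), *EXO1* and *FANCA* lie below all mock spots, while those of *RAD50* overlap them.

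The probes of 1 gene gave the other look at the measurement. Of 10 members with several probes measured with *miR-139-3p*, 7 had probes of the same sign and 3 of both signs (*ATM*, *FANCF* and *RAD51D*). All 3 were between as genes. The widest span within a lower gene was that of *FANCA*, from -2.33 to -0.91, and both ends of it were past the threshold. *RAD54B* had 1 probe past the threshold and 1 short of it. The median SD between probes over the arrays, 0.28, was exceeded by the SD of all these members but *ATR* and *FANCL*, from 0.31 for *CHEK2* to 0.72 for *FANCA*. Probes can read different transcripts of a gene, which was not tested.

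With *miR-139-5p*, most members lay near mock. Of 40 members, 2 were lower, 3 were higher and 35 were between, where 12.2% of 13195 protein-coding genes were lower and 10.6% were higher. The median was 0.04 over the members and -0.01 over the protein-coding genes. Those past the threshold were *RAD51B* and *EME1* among the lower, and *NBN*, *RAD51AP1* and *ATM* among the higher, and none passed a threshold of 1. *ATM* (0.53) and *EME1* (-0.59) lay closer to the threshold than the SD of 0.15 between probes of 1 gene, and *RAD51B* (-0.66), *RAD51AP1* (0.66) and *NBN* (0.71) lay further out. Of these 5, *NBN* was past the threshold of 0.5 in every setting. *RAD51B* (-0.15), *RAD51AP1* (0.35) and *ATM* (0.26) were short of it with normexp, and *EME1* (-0.47) with scaling by the E1A spike-in probes. *ATM*, with probes at 0.38 and 0.67, was also short of it with the brightest or the lowest probe and with no scaling. The Fanconi group ran from -0.41 for *FANCG* to 0.34 for *FANCB*, with 0 of 11 past the threshold.

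The comparisons with mock share the mock array, so an error on that array would enter both, and the values are set side by side only. Of the members, 24 were lower with *miR-139-3p* and between with *miR-139-5p*. *NBN* and *RAD51AP1* were lower with *miR-139-3p* and higher with *miR-139-5p*, *EME1* and *RAD51B* were lower with both, and 9 were between with both. How often such joint calls occur over all protein-coding genes was not counted, so they cannot be called particular to the members. Taken singly, 30.5% of protein-coding genes were lower after *miR-139-3p*. After *miR-139-5p*, 12.2% were lower and 10.6% were higher, the rest being between. The pattern of *NBN* was kept in every setting at the threshold of 0.5. Those of *RAD51AP1* and *RAD51B* were lost with normexp and that of *EME1* with spike-in scaling.

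The arms were also compared directly, without mock, though the *miR-139-3p* array again comes from another scan. Against *miR-139-5p*, 26 of 39 members were lower with *miR-139-3p*, 1 was higher and 12 were between, where 30.6% of 13449 protein-coding genes were lower and 23% were higher. The median was -0.96 over the members and -0.11 over the protein-coding genes. *RAD51AP1* had the lowest value, -2.77, 6.84-fold lower with *miR-139-3p* than with *miR-139-5p*, followed by *BARD1* (-2.42), *BLM* (-2.31) and *EXO1* (-2.04). With normexp *BRCA2* (-0.18), *BRIP1* (-0.20) and *SLX4* (-0.44) were short of the threshold, and *RAD51AP1* was at -1.07, nearer to 0 than *BLM* (-1.89) and *BARD1* (-1.62). *RAD52* was again the member that was higher, at 0.88. *EME1* and *RAD51B*, lower than mock on both arrays, differed between the arms by -0.08 and 0.07. The Fanconi group had 10 of 11 lower, *FANCF* being at 0.10.

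**Figure D5:**
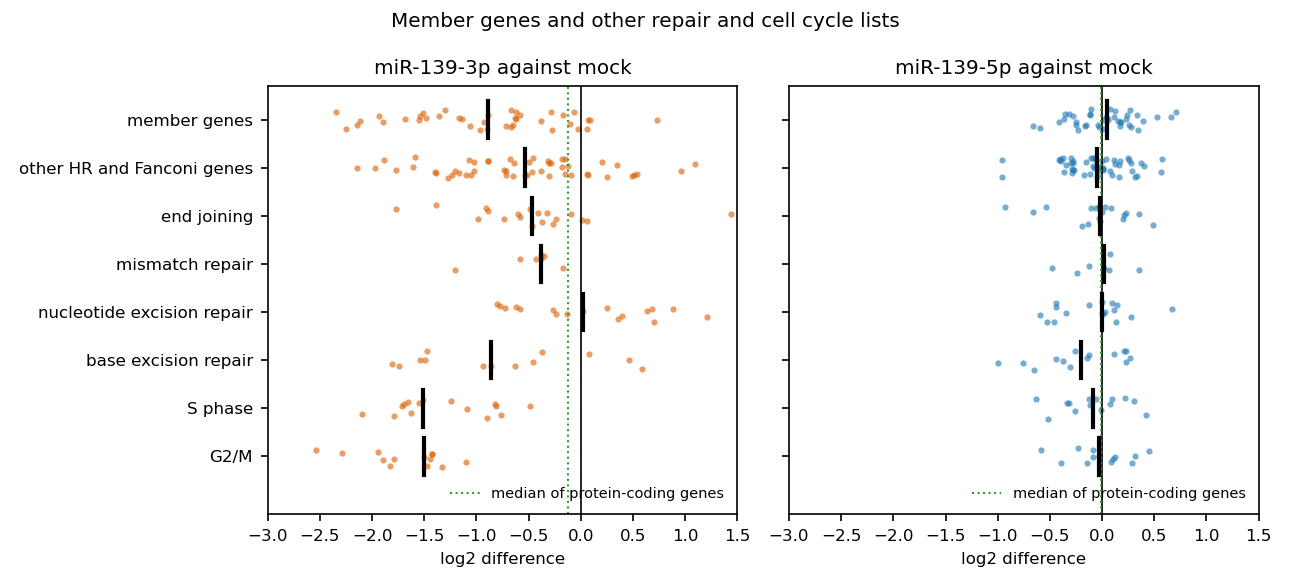
Log2 differences of single genes (points) against mock for the members and 7 other lists, for *miR-139-3p* (left) and *miR-139-5p* (right), with the median of each list as a black bar and that of the protein-coding genes as a dotted line. The vertical place of points within a list has no meaning, and a gene in end joining with a bound in place of a value is drawn at the bound. The medians on the left run from -1.51 for S phase to 0.02 for nucleotide excision repair, with the members at -0.89.

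Other genes of the same pathways, 55 not among the members, were counted by the same rule. Of 51 with a value with *miR-139-3p*, 27 were lower, 4 were higher and 20 were between, where 30.5% of protein-coding genes were lower and 23% were higher, with a median of -0.53, against -0.89 over the members and -0.13 over the protein-coding genes. The lowest was *CLSPN*, which encodes the adaptor that passes the signal from ATR to CHEK1, at -2.14. The higher ones were *HELQ*, a helicase (0.51), *FAN1*, a nuclease of cross-link repair (0.53), and *SWSAP1* (0.96) and *ZSWIM7* (1.09), which form a complex that binds the recombinase. *DNA2* of this list was, like *CHEK1*, among the study's candidate genes. With *miR-139-5p*, 2 of 51 were lower, *CLSPN* (-0.96) and *FAAP24* (-0.96), 2 were higher, *SFR1* (0.56) and *RECQL* (0.58), and the median was -0.05. The S phase and G2/M lists had medians of -0.09 and -0.03 with *miR-139-5p*, with 2 of 14 and 1 of 13 lower, beside 12.2% of protein-coding genes.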

How the data were processed

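RNA of A549 cells was hybridised by the authors to Agilent arrays of 1 colour, 1 array for each of 3 conditions. For each spot, the authors deposited its intensity from Agilent Feature Extraction 12.1.1.1, processed by that software and not normalized between arrays, with its outlier and background flags, which are yes or no marks. Median intensities of spot and local background were also deposited, for the normexp alternative. A table of log2 values per probe was deposited too; set against the spot values, it held quantile-normalized log2 signals, with a median of 2.21 on each array and 93.4% to 96.1% of probes within 0.05, and it served as an alternative. Its direction follows the signal.

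From the processed intensities, log2 was taken and scaled so that the 75th percentile of an array, without its control spots, was 0. Outlier spots were left out, spots of 1 probe were averaged, and a probe counted as well above background where at least 50% of its spots were. A gene's log2 difference was the average of those probes that were well above background on the 2 arrays compared. Where only 1 array measured a gene, its brighter signal was set against the dim probe's signal or, where higher, the lowest well above background on that array, which gives a bound; 0 members needed one. Probes were named by RefSeq accession, without versions, through the annotation of GRCh38.p14, and 31104 of 58201 probes were matched. All 40 members were described by role. The members and lists were chosen with earlier results of these data known. With 1 array per condition no test could be made, and precision is limited by this number. In all, 13 alternatives were planned and 1 was added after seeing the data. The steps were tested on simulated data. Python 3.11.15, numpy 2.4.6, pandas 2.3.3, matplotlib 3.10.9, R 4.3.3 and limma 3.58.1 (normexp, offset 50) were used.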

Additional observations from a re-analysis of the deposited data

Results flagged for a closer look

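The signals of *NBN* and *RAD51AP1* lay on opposite sides of mock on the *miR-139-3p* and *miR-139-5p* arrays, past the threshold of 0.5 on both. The log2 difference of *NBN* was -0.96 after *miR-139-3p* and 0.71 after *miR-139-5p*, and that of *RAD51AP1* was -2.11 and 0.66. With normexp background correction *RAD51AP1* was at -0.71 and 0.35, so that it was no longer past the threshold with *miR-139-5p*, while *NBN* was past it in every setting at that threshold. Each gene has 1 probe with 1 spot per array, both comparisons share the mock array, and the difference between them was not tested.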

How the results depend on the processing

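No difference past the threshold reversed under 13 other settings or a further one (only probes well above background on all 3 arrays, chosen after seeing the data). At the threshold of 0.5, 21 (normexp) to 30 (lowest probe of each gene) members were lower than mock with *miR-139-3p*, and 21 members were lower in every setting at that threshold. Of protein-coding genes, 21.3% were lower with normexp and 34.3% with the lowest probe. The 7 others that were lower in the text fell short of it with normexp, from -0.13 (*RAD51B*), -0.14 (*BRCA2*) and -0.20 (*BRIP1*) to -0.43 for *RAD54B*, -0.46 for *MRE11*, -0.48 for *FANCM* and -0.497 for *FANCB*. With normexp background correction, which draws dim signals together, the median was -0.58 for *miR-139-3p* against mock and -0.68 against *miR-139-5p*, 0 members were higher than mock with *miR-139-3p*, and 1 was lower and 1 higher with *miR-139-5p*. With a threshold of 1, 16 members were below mock and 0 above it after *miR-139-3p*, 0 were on either side after *miR-139-5p*, and 0 were higher in the direct comparison of the arms. With the brightest or the lowest probe of each gene, 0 members were higher than mock with *miR-139-3p*, where 23.3% and 21.2% of protein-coding genes were. Against *miR-139-5p*, 23 (normexp) to 32 (spike-in scaling) members were lower with *miR-139-3p* at the threshold of 0.5, where 20.7% and 46.4% of protein-coding genes were. With the percentile over detected probes, with no filter on dim probes and with the deposited log2 values 2 members were higher, beside 20.15% to 28.99% of protein-coding genes. Scaling by the E1A spike-in probes left 1 member lower and 4 higher with *miR-139-5p*, *XRCC2* being at 0.51, where 8.05% of protein-coding genes were lower and 16.1% higher. The same scaling gave a median of -1.27 over the members for *miR-139-3p* against *miR-139-5p*. The cause was not tested.

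Scaling moved all genes together. The median over protein-coding genes with *miR-139-3p* against mock was -0.13 in the text, 0.01 with the percentile over detected probes, -0.32 with spike-in scaling and -0.34 with no scaling, and the median of the members minus it was -0.76 in each. Of protein-coding genes past the threshold, 43.0% were higher in the text, 53.2%, 29.6% and 28.8% in those settings. For *miR-139-5p* the share was 46.6% in the text, 66.6% with spike-in scaling and 33.9% with no scaling, and with *miR-139-3p* against *miR-139-5p* it was 42.9%, 55.0% with the percentile over detected probes and 24.5% with spike-in scaling. Normexp lowered the share to 29.3% for *miR-139-3p* against mock. *ATM*, *ATR*, *PALB2*, *XRCC2*, *RAD50* and *FANCF* lay near enough to mock that their sign with *miR-139-3p* turned with the scaling or the probe taken. No paired analysis was possible because each condition had 1 array. Signal over background limits a probe of *FANCD2* (7.06% of the 75th percentile), *RAD51AP1* (13.7%) and *BRCA2* (17.1%) after *miR-139-3p*, where the lowest signal well above background was 5.33%.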

Other observations

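Genes of the other DNA repair pathways were counted by the same rule with *miR-139-3p*, beside 30.5% lower and 23% higher over protein-coding genes. Of 13 measured base excision repair genes, 8 were lower and 1 was higher, with a median of -0.86. The lowest was *NEIL2*, a glycosylase that removes oxidised bases, at -1.81, and the higher one was its relative *NEIL1*, at 0.59. In end joining, which ligates broken ends directly, 8 of 19 genes were lower and 1 was higher, with a median of -0.47. *LIG3*, a DNA ligase, was the lowest at -1.77, and *LIG4*, the ligase of the main end joining route, was higher with a bound of 1.43 in place of a value. Nucleotide excision repair, which cuts out bulky lesions, had 5 lower and 5 higher of 17, with a median of 0.02, from -0.81 for *GTF2H4*, a subunit of TFIIH, to 1.21 for *ERCC6*, which acts at stalled RNA polymerase. Of 7 mismatch repair genes 2 were lower, *MSH6* (-1.20) and *MLH3* (-0.58), and the median was -0.38. The shares lower in nucleotide excision repair (29.4%) and mismatch repair (28.6%) were near that over protein-coding genes.

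With *miR-139-5p* the medians of these lists were -0.20 for base excision repair, -0.02 for end joining, 0.00 for nucleotide excision repair and 0.02 for mismatch repair. The lowest genes were *OGG1*, the glycosylase of oxidised guanine (-0.997), and *XRCC5*, which encodes a subunit of the Ku complex (-0.93). *ERCC6* was the highest gene of its list with both miRNAs, at 0.66 with *miR-139-5p*.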
